A study of Apostichopus japonicus with 9 samples.

Results

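The transcripts described here are 100 of 27269 gene models measured in sea cucumber intestine (Apostichopus japonicus). They were selected on their scaled read counts in these same libraries, because they stood higher in concentrated sea water than in both control and diluted sea water. Estimated counts were scaled between libraries, 12545 genes reached a mean scaled count of at least 10, and 112 of those met 2 further conditions. The lowest of the 3 high-salinity libraries had to exceed the highest of the 6 other libraries, and the means of the control and low-salinity groups (each + 1) had to lie within 2.5-fold of each other. The 100 with the widest margin were kept, where the margin is the lowest high-salinity library divided by the highest of the 6 others, each + 1. The higher level at high salinity is therefore what chose the members, and it is given below as a description with no test.

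Each library was made from the pooled intestinal RNA of 3 animals. The age and sex of the animals are not given in the labels. Group SD30 was held at the normal salinity (labelled 30), group SD20 was brought stepwise to a low salinity (labelled 20) and group SD40 stepwise to a high salinity (labelled 40), with 3 libraries each. The labels do not say whether pools of a group came from separate tanks. If they shared a tank, tank and salinity could not be told apart. The spread between libraries, and the standard errors and p-values below, would then leave out differences between tanks. In bulk RNA, a larger share of one cell type and more RNA per cell cannot be told apart.

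Sea cucumbers are echinoderms, marine invertebrates whose body fluid largely follows the salt content of the surrounding water. When that water becomes more concentrated, cells lose water, and marine invertebrates are known to restore cell volume mainly by taking up ions and accumulating small organic solutes such as free amino acids and betaines. Protein chaperones are also a common part of the response of animal cells to concentrated media. The intestine is in direct contact with swallowed sea water. None of the 27269 identifiers had an entry in RefSeq's gene table for this organism, assembly ASM3797524v1 (0 matches), so no gene name, function, coordinate or sequence is given for any member, and no list of osmotic or stress genes could be set beside them. The intestinal label could not be checked against marker genes for the same reason.

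Estimated counts summed to between 2834168 and 4060892 per library. The scaling factors that divided them ranged from 1.32 to 1.55 for SD20, from 0.537 to 1.15 for SD30 and from 0.850 to 1.34 for SD40. The factors of SD30 replicates 1 and 2 were the lowest, at 0.537 and 0.566, so 1 read weighed most in these 2 control libraries. They were not the shallowest, with totals of 3373860 and 4060892. They had the fewest genes above 0, at 17306 and 17954, against 19105 to 22747 in the other libraries. The reason for this difference was not tested. With library totals in place of the scaling factors, SD40 stayed apart from all other libraries in 49 of the 100 members, as detailed further on.

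Most members differed from the other libraries by a narrow margin, and a few by a wide one. The median margin was 1.16, with quartiles of 1.07 and 1.28. It exceeded 1.2 in 39 members, 1.5 in 11, 2 in 6 and 3 in 2. Just inside the limit, AJAP12194 had a margin of 1.013, and just outside it AJAP16589 had 1.012. In AJAP12194 the SD40 libraries stood at 62.3, 54.8 and 65.6 scaled counts and the highest other library, SD30 replicate 1, at 54.1. In AJAP16589 they stood at 202, 253 and 127, and SD30 replicate 2 at 125.5. In margin, the 2 genes on either side of the limit therefore differed less from each other than from the leading members. Their SD40 means were 1.42 (AJAP12194) and 2.37 (AJAP16589) times the mean of the 6 others, each + 1. With library totals SD40 stayed apart in AJAP16589, the gene left out, and not in AJAP12194. Complete separation of SD40 from the 6 others was found in 0.965% of the 12545 genes, and in all 100 members because the rule required it.

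**Figure D1:**
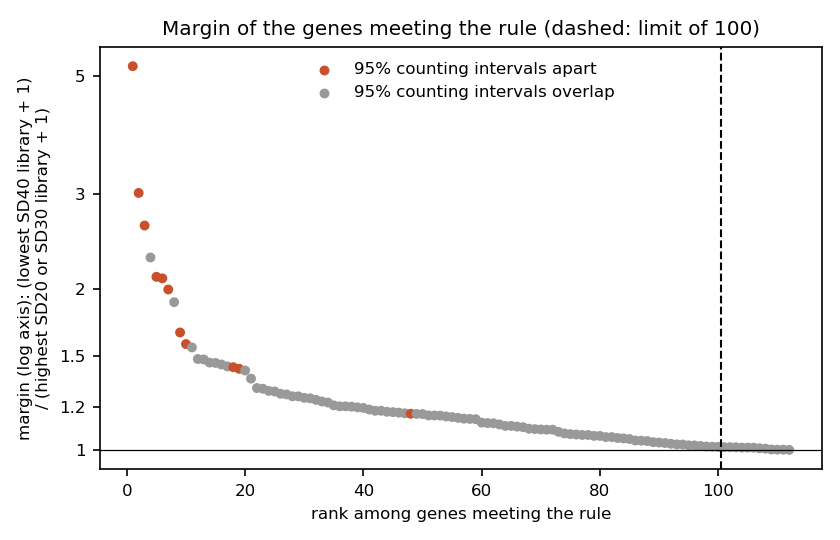
Margin (log axis) of the 112 genes meeting the rule, against their rank, with the limit of 100 dashed. Red points are genes in which the 95% counting interval of the lowest SD40 library lay above that of the highest other library; they are 11 of the 100 members, and most points lie below 1.5.

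Across most of these margins the counting intervals overlapped. Exact Poisson 95% intervals of the estimated counts were set around the lowest SD40 library and the highest other library of each member. In 11 members the intervals were apart, and in the remaining members they overlapped. The 11 included members with wide margins and also abundant ones, down to a margin of 1.17. These intervals cover counting error only, since amplified reads are not independent molecules.

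The group means differed more than the margins did. The mean of the SD40 libraries was 2.17 times the mean of the 6 others in the median member (each + 1), against 0.979 over the 12545 genes, and it ranged from 1.31 to 67.9. It exceeded 1.5 times in 94 members, 2 times in 59, 3 times in 27 and 4 times in 16. The middle SD40 library, which does not depend on the height of the highest, exceeded 2 times the mean of the others in 50 members. The lowest SD40 library did so in 30. These folds come from the values that chose the members.

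**Figure D2:**
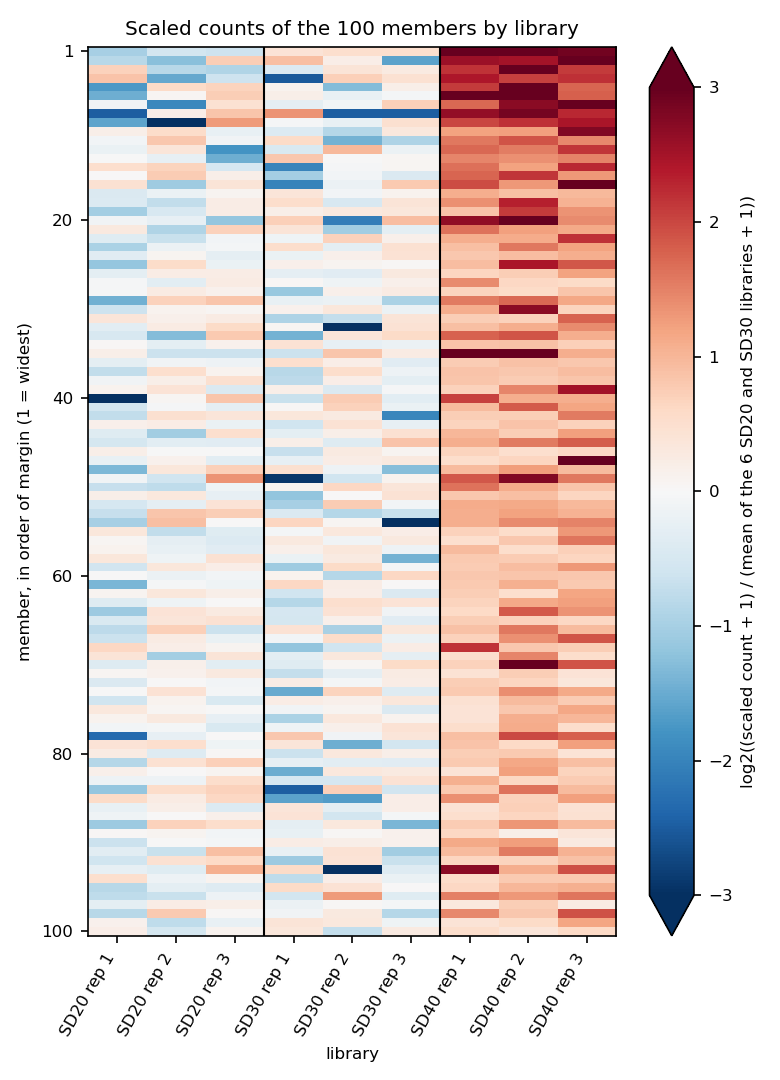
Scaled counts of the 100 members (rows, in order of margin) in the 9 libraries (columns), as log2 of the ratio to the mean of the 6 SD20 and SD30 libraries, each + 1, with colours ending at 3 in both directions. The 3 SD40 columns are higher than the rest in every row by construction, and the colour is strong in the upper rows and pale in most lower ones.

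The widest margin belonged to AJAP01274, a gene model of 987 bases. Its libraries stood at 10.6, 14.9 and 14.2 scaled counts at low salinity, 29.8, 31.8 and 32.2 in the control and 252.4, 252.1 and 172 at high salinity. With this scaling the 3 groups did not overlap. SD20 and SD30 did overlap in the authors' FPKM, at 4.12, 5.86 and 5.98 in SD20 against 4.82, 4.53 and 11.2 in SD30, and with library totals as the scaling. The SD40 mean was 7.02 times the SD30 mean and 15.9 times the SD20 mean. All its estimated counts were whole numbers, and the margin was 5.21 against 3.02 for the next member.

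The members ranked 2 and 4 by margin had low scaled counts in SD20 and SD30. AJAP08781 (675 bases) stood at 2.30, 1.47 and 8.83 scaled counts at low salinity, 10.01, 5.82 and 0.948 in the control and 33.9, 32.2 and 53.7 at high salinity. AJAP12326 (933 bases) stood at 9.34, 0.971 and 2.75 at low salinity, 0, 8.397 and 6.88 in the control and 29.6, 22.6 and 24.98 at high salinity. In both, the SD20 and SD30 libraries were interleaved. The 2 genes differed in evenness at high salinity, with a highest library 1.67 times the lowest in AJAP08781 and 1.31 times in AJAP12326. Before scaling, AJAP12326 had 39.75, 23.35 and 21.24 estimated counts in the SD40 libraries, and its lowest SD40 and highest other library were not apart by counting error.

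A single SD40 library carried much of the difference in the member ranked 3. AJAP11080, a short model of 345 bases, stood at 85.4, 29.1 and 27.7 scaled counts at low salinity, 39.1, 68.9 and 63.5 in the control and 237, 1718 and 226 at high salinity. SD40 replicate 2 was far above replicates 1 and 3, which were close to each other and still above every other library. The SD40 to SD30 log2 fold change fitted by edgeR was 3.72 (SE 0.91) with all libraries and 1.98 without SD40 replicate 2. In the authors' FPKM, which corrects for length, it stood at 682 ± 785 in SD40 against 39.35 ± 25.7 in SD30 and 57.9 ± 38.6 in SD20 (SD, n = 3 each). AJAP23899 (1119 bases), ranked 5, stood at 6.93, 37.7 and 40.4 scaled counts at low salinity, 27.2, 9.53 and 28.3 in the control and 110.1, 251 and 86.2 at high salinity. It too was highest in SD40 replicate 2, and its SD20 and SD30 libraries overlapped.

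Of the 3 members with the most reads in SD40, AJAP05921 and AJAP22108 had narrow margins, of 1.17 and 1.04. AJAP05921, a short model of 543 bases, stood at 630.5, 2010.2 and 2633 scaled counts at low salinity, 2228.5, 1428 and 663 in the control and 3110.2, 3831 and 3076 at high salinity. Its SD20 and SD30 libraries spread over a wide common range, while the SD40 libraries were close to each other. Per length it was also the highest member, at 1959.7 ± 209 FPKM in SD40, 498 ± 157 in SD30 and 1344 ± 823 in SD20 (SD, n = 3 each). AJAP22108, of 540 bases, stood at 214, 744 and 663 scaled counts at low salinity, 376, 567 and 176 in the control and 773, 1139 and 878 at high salinity. AJAP05921 and AJAP22108 were both lowest in SD20 replicate 1 and SD30 replicate 3. Their deviations from the group means of log2(scaled count + 1) correlated at r = 0.874 over the 9 libraries, a description of libraries that share depth and scaling.

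AJAP12524 (1629 bases) combined a high level with a wider margin of 1.58. It stood at 585, 756 and 441 scaled counts at low salinity, 388, 283 and 645 in the control and 1192, 1215 and 3535 at high salinity. SD40 replicate 3 was 2.97 times the lowest SD40 library, and replicates 1 and 2 were nearly equal. Its fitted log2 fold change was 2.20 against SD30 (SE 0.56) and 1.73 against SD20 (SE 0.55), and without SD40 replicate 3 it was 1.51 and 1.06.

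**Figure D3:**
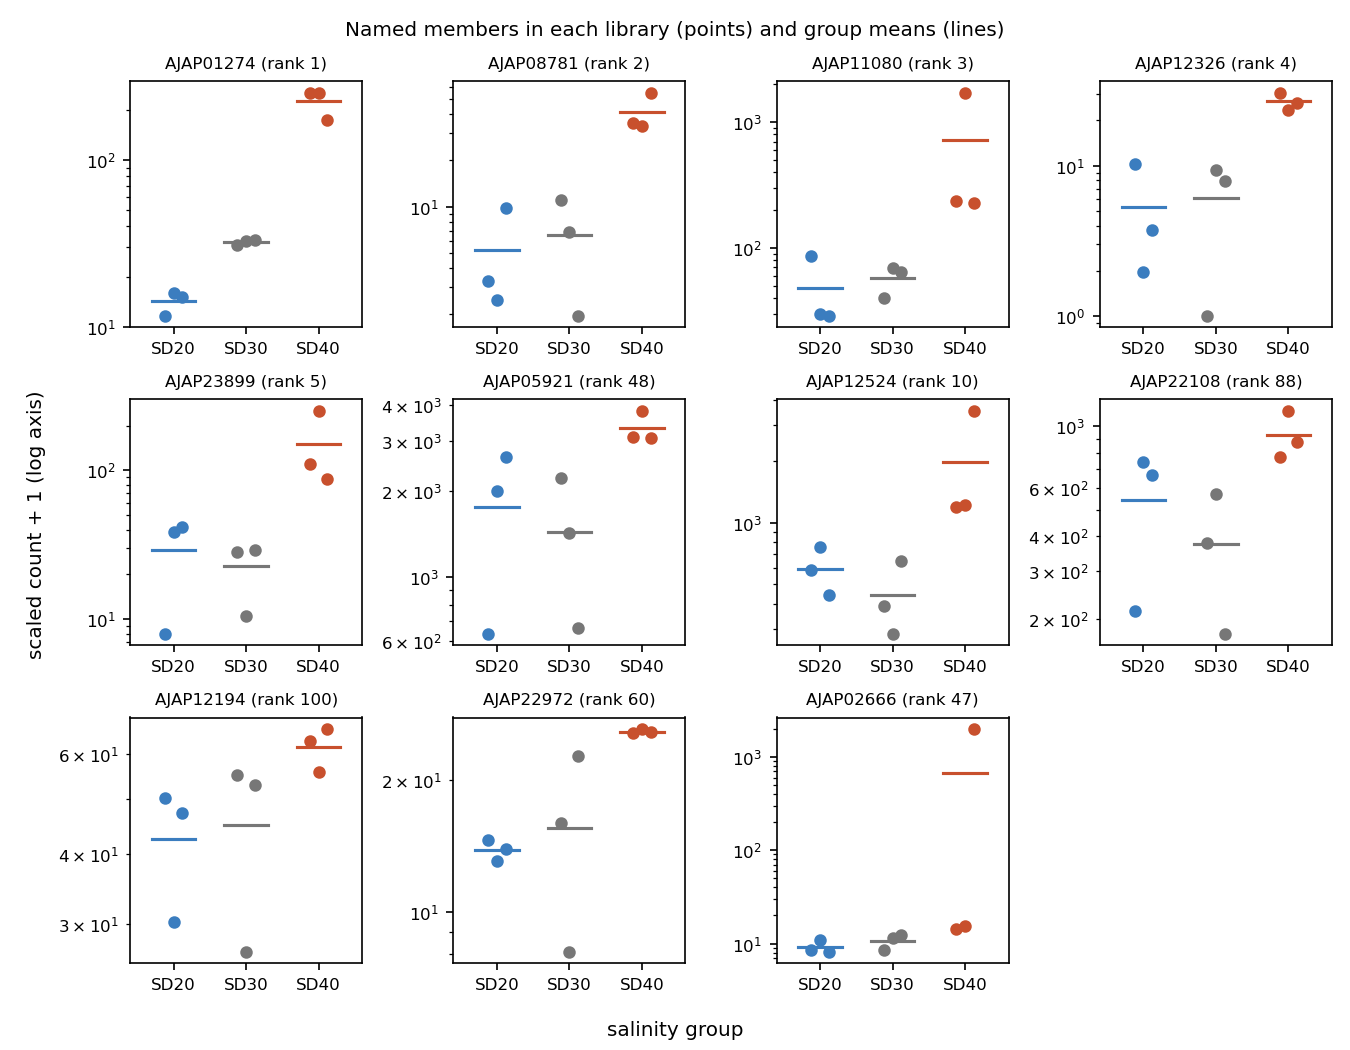
Scaled count + 1 (log axis, a separate range in each panel) of 11 members in the 3 libraries of each salinity group (points), with group means (lines) and the rank by margin in the title. AJAP01274 shows 3 separate steps with this scaling (in FPKM its SD20 and SD30 libraries overlap, at 4.12 to 5.98 and 4.53 to 11.2), AJAP02666 is far above the rest in 1 SD40 library, and AJAP12194 shows the narrow gap at the end of the list.

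How evenly the SD40 libraries carried the higher level differed widely between members. The most even was AJAP22972 (684 bases), with 24.6, 25.2 and 24.7 scaled counts in SD40, 13.6, 12.1 and 12.9 in SD20, and 14.9, 7.07 and 21.7 in SD30. The least even was AJAP02666 (702 bases), with 13.4 and 14.5 scaled counts in SD40 replicates 1 and 2 and 2003 in replicate 3, against 7.08 to 11.3 in the 6 other libraries. Its SD40 mean was 67.9 times the mean of the others, the largest of the 100 members, and rested on that 1 library. Without it, the fitted log2 fold change against SD30 went from 6.08 (SE 1.81) to 0.56. The highest SD40 library exceeded 5 times the lowest in 6 members, of which 3 were highest in SD40 replicate 3, 2 in replicate 2 and 1 in replicate 1. It exceeded 2 times in 26 members and 1.5 times in 53. The median of this ratio was 1.55 in the members and 2.61 over the 11740 genes above 0 in all SD40 libraries, a difference that the rule favours because it ranks on the lowest SD40 library.

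The members were not spread equally over the SD40 libraries. SD40 replicate 2 was the highest of the 3 in 45 members, replicate 3 in 37 and replicate 1 in 18. Over the 12545 genes the shares were 30.3%, 35.0% and 34.7%. SD40 replicate 1 was the lowest of the 3 in 42 members (37.8% over the 12545 genes), so it most often set the margin. Members highest in SD40 replicate 1 had a median length of 1193 bases, those highest in replicate 2 had 732 and those highest in replicate 3 had 1056. Over the 12545 genes the same medians were 1335, 954 and 984 bases. The part of gene model length in these differences was not tested. The highest of the 6 other libraries was an SD20 library in 45 members (7, 16 and 22 in replicates 1 to 3) and an SD30 library in 55 (17, 21 and 17).

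Summed over the 100 members, scaled counts came to 13965, 19599 and 19375 in the SD40 libraries. They came to 6905, 6533 and 5555 in SD30, and to 4723, 7357 and 7989 in SD20. The SD40 sums were all higher by construction, and the SD20 and SD30 sums overlapped. AJAP05921 alone made up 15.9% to 22.3% of the sum in SD40 and 11.9% to 33.0% in the other libraries. AJAP12524 reached 18.2% of it in SD40 replicate 3. With AJAP05921, AJAP12524 and AJAP22108 left out, the sums were 11396 ± 2301 in SD40, 4079 ± 171 in SD30 and 3797 ± 481 in SD20 (SD, n = 3 each). As a share of all reads the members were minor, at 0.465% to 0.581% of counts in SD40, 0.0910% to 0.191% in SD30 and 0.181% to 0.333% in SD20.

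**Figure D4:**
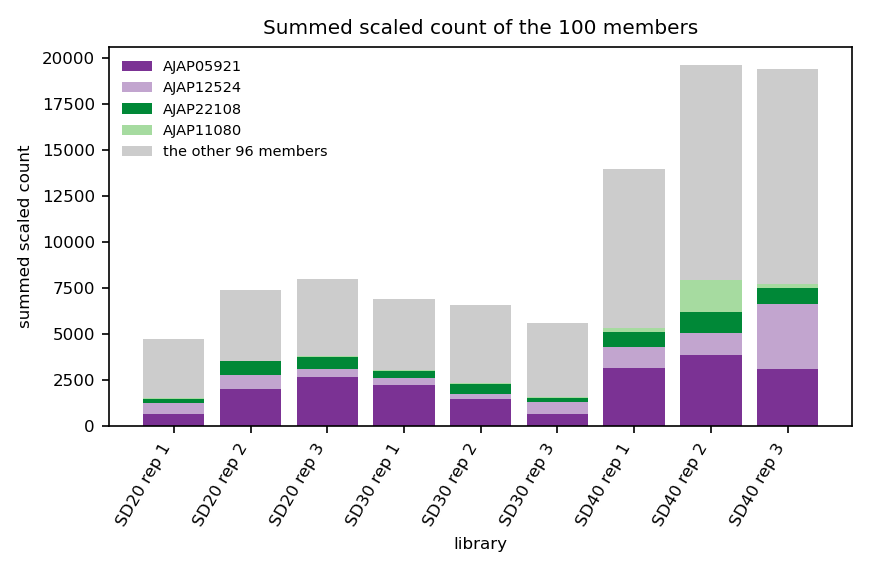
Summed scaled count of the 100 members in each library (bars from 0), with the 4 members highest on average in SD40 in colour. The SD40 bars reach 13965 to 19599 and the others 4723 to 7989; AJAP11080 takes its largest part in SD40 replicate 2.

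Between low salinity and control the direction of the members depended on the scaling. With library totals, and likewise with FPKM, the SD20 mean was above the SD30 mean in 94 members. Genes in general lay the same way there, with a median log2 ratio of SD20 to SD30 over the 12545 genes of 0.81 and 0.73. With the scaling of the rule the SD20 mean was above in 51 members and below in 49, with no common direction. The median ratio of SD20 to SD30 was then 1.01, against 0.961 over the 12545 genes. All SD20 libraries lay below all SD30 libraries in 6 members (10.6% of the 12545 genes) and above them in 2 (11.1%). The limit of 2.5-fold removes genes with large differences, so these shares cannot be compared directly. The 6 members that stepped up from SD20 to SD30 to SD40 with no overlap included AJAP01274 and, with a narrower margin, 5 members ranked 50 to 95. The lower step was present in all 6 with TMM and in none (0) with library totals or FPKM, where the SD20 mean was below the SD30 mean in 2 of them. At 0 in at least 1 of the SD20 and SD30 libraries were 8 members, with 12 such values in all, and no member (0) was at 0 in all 6 of them.

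Membership depended on the scaling. With TMM, another scaling that assumes most genes do not differ, SD40 stayed apart in 99 of the 100 members. With library totals it stayed apart in 49, and with the authors' FPKM in 49. The whole rule was met by 139 genes with totals and 138 with FPKM, of which 46 and 47 were members. The members apart under all 4 scalings numbered 49, and the first 20 by margin were all among them. These 4 are not independent, since FPKM also divides by assigned fragments and TMM makes the same assumption as the main scaling. Of the 51 that overlapped under totals, 48 then had an SD20 library as the highest of the others. Relative to the main scaling, totals placed all genes differently between groups. The median log2 ratio of SD20 to SD30 over the 12545 genes was -0.06 with the main scaling and 0.81 with totals, and that of SD40 to SD20 was 0.07 and -0.28. Under totals the SD20 mean exceeded the SD30 mean in 94 members, so the balance between these groups given above turns with the scaling. AJAP01274, AJAP08781, AJAP11080, AJAP12326, AJAP23899, AJAP12524 and AJAP02666 kept SD40 apart under all 4 scalings. AJAP05921, AJAP22108, AJAP22972 and AJAP12194 did not keep it under totals or FPKM.

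**Figure D5:**
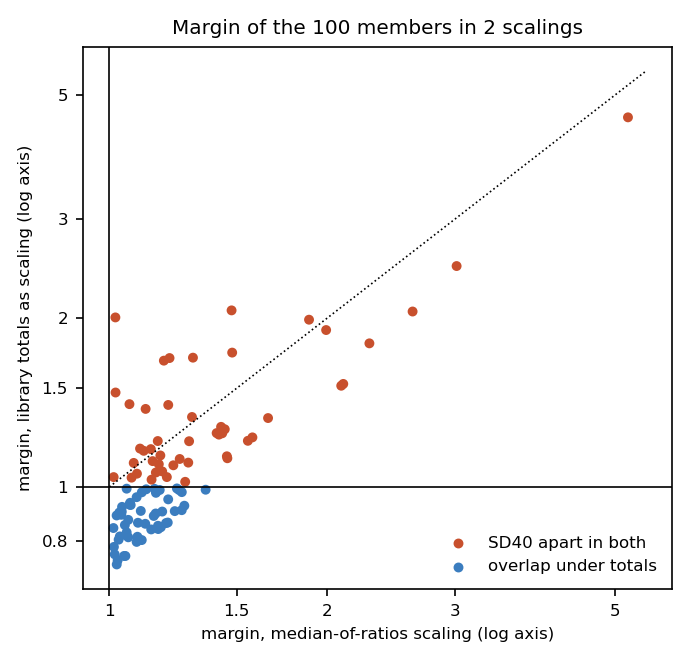
Margin of each of the 100 members with the main scaling (horizontal, log axis) and with library totals (vertical, log axis); the dotted line marks equal margins. Blue points below 1 are the 51 members in which SD40 overlapped the other libraries under totals, whose margins with the main scaling reached at most 1.36.

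A fit across all genes gave the background for the members. Of the 100, 98 passed the filter on low counts, and 14191 genes were tested in all. For SD40 against SD30, edgeR's quasi-likelihood test called no gene (0%, Benjamini-Hochberg adjusted threshold of 0.05), so no member (0) was called. Without adjustment, 894 genes (6.3%) had p under 0.05, 492 of them higher in SD40 (3.47%), and 43 of the 98 members did, all higher. DESeq2 was given all 27269 gene models, not all of which it need have tested, and called 45, 4 of them members. Limma on log2(FPKM + 1) called none (0) of 18576 genes. There 1445 genes (7.78%), 86 of them members, had an unadjusted p under 0.05. For SD40 against SD20, edgeR called 1 gene (0.00705%), the member AJAP01274, and 914 genes (6.44%) had an unadjusted p under 0.05, 572 of them higher in SD40 (4.03%). Of the members 46 did, all higher. Omitting any 1 of the 9 libraries ended that single call, as did scaling by library totals, while the log2 fold change of AJAP01274 against SD20, 4.10 (SE 0.41) with all libraries, stayed between 3.96 and 4.28 over the omissions. The 43 members became 25 without SD30 replicate 1 (3.88% of all genes in that fit), 25 without SD40 replicate 3 (5.55%), 27 without SD40 replicate 2 (7.26%) and 67 with library totals (8.74%). The 46 became 22 with library totals (5.03%). The 914 genes became 2061 without SD40 replicate 1. Both comparisons chose the members, so nothing is read from these counts. For SD20 against SD30, edgeR called no gene (0%) while DESeq2 called 282 of the 27269 given to it, none of them members (0). Without adjustment 1738 genes (12.2%) and 1 of the 98 members had p under 0.05, where the rule had already limited the difference. With SD20 replicate 3 omitted the 1738 genes became 939, with SD30 replicate 1 omitted 1068, and with library totals 2635 (18.6%), when 15 members had p under 0.05.

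The fitted log2 fold changes of the 98 members had medians of 1.23 against SD30 and 1.15 against SD20, beside 0.11 and 0.04 over all genes tested. They exceeded 1 in 64 and 58 members, and in 17.3% and 13.0% of all genes tested. Since the members were chosen on these counts and groups, both medians describe that choice and nothing is read from them. Between SD20 and SD30 the median was 0.06, beside 0.07 over all genes, with a range of -1.20 to 1.31. Both SD40 comparisons share the same 3 SD40 libraries.

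Features that the rule did not use were close to those of all genes in most respects. The median coding length was 919.5 bases in the members, with quartiles of 591 and 1508 and a range of 216 to 5019, and 1071 bases over the 12545 genes. Models under 600 bases made up 26 of the 100 members and 18.3% of the 12545 genes. Lengths were multiples of 3 in 93 members and in 94.0% of the 12545 genes, so they are mainly coding lengths. All estimated counts were whole in 44 members and in 43.7% of the 12545 genes; fractional counts may come from reads shared out among similar models, so members with them are uncertain where near-identical copies exist. Among the named members, AJAP01274, AJAP11080, AJAP05921, AJAP22108, AJAP22972 and AJAP02666 had whole counts.

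The members were mostly of moderate abundance. Their mean scaled count over the 9 libraries had a median of 32.2, against 37.2 over the 12545 genes, and ranged from 10.5 to 2179. It was under 20 in 31 members (26.8% of the 12545 genes) and over 100 in 21 (22.3%). This mean includes the SD40 libraries, which the rule required to be high, so it is not independent of the choice. Some members reached the minimum of 10 only through SD40. Among them, AJAP08781 averaged 4.20 in SD20 and 5.59 in SD30, and AJAP12326 averaged 4.35 and 5.09. None of the 100 most abundant genes was a member (0), and the most abundant member, AJAP05921, ranked 179th. Per length, the mean level in SD40 had a median of 19.9 FPKM and ranged from 2.18 to 1959.7, with 13 members over 100 FPKM and 30 under 10. In the 6 other libraries the median was 8.02 FPKM. Over the 12545 genes both medians were similar, at 11.02 and 10.9 FPKM.

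Within groups, the members varied together only slightly more than genes in general, by description. Deviations from the group means of log2(scaled count + 1) were correlated for the 4950 pairs of members over the 9 libraries. The median r was 0.06, against -0.002 over all pairs of the 12545 genes, and r exceeded 0.8 in 138 pairs (2.79%, against 2.21%). The rule used the same libraries and limits how members can deviate within groups, so these values cannot be compared directly. The highest values were 0.981 for AJAP16329 with AJAP25770 and 0.970 for AJAP01274 with AJAP06411, pairs chosen after their values were seen. In AJAP06411 the libraries stood at 146, 228 and 222 scaled counts at low salinity, 269, 260.3 and 252 in the control and 508, 551 and 277 at high salinity. Like AJAP01274 it was lowest among the SD40 libraries in replicate 3 and lowest among the SD20 libraries in replicate 1. Its SD20 libraries lay below its SD30 libraries with this scaling, but in FPKM the groups overlapped and the means went the other way, at 55.9 in SD20 and 39.2 in SD30.

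The same rule was applied to the most similar patterns for size only. With SD20 in place of SD40 as the high group, 338 genes met it, and with SD40 as the low group 90 did, against 112 for SD40 as the high group. These counts were not tested against each other.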

How the data were processed

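Poly(A) RNA of 9 pooled intestinal libraries was sequenced, per the labels' protocols. The deposited files give, per the file headers, an estimated count per gene model (often not whole, not normalized), the authors' FPKM (per length and per assigned fragments) and the gene model length. The submitters' processing notes name CASAVA 1.5. Aligner, counter, genome build and annotation were not given in the sources used here. Genes absent from a file were set to 0.

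Counts were divided by median-of-ratios size factors from the 12361 genes above 0 in all 9 libraries, and the selection rule was applied (Python 3.11.15, pandas 2.3.3). Rounded counts were tested in edgeR 4.0.16, under R 4.3.3 (filterByExpr, TMM, robust quasi-likelihood fit of all 9 libraries, group as the only term, Benjamini-Hochberg over all genes). A standard error (SE) was obtained as the log2 fold change over the root of F. Alternatives used other scalings and filters, DESeq2 1.42.0, and limma 3.58.1 with pseudocounts of 1 or 0.1 added to FPKM before log2 (genes reaching 1 FPKM in 3 libraries or more), 2-group fits, a replicate block and the omission of each library. Fits and rule were run on simulated counts with large planted changes. That checked the code only, and not margins as narrow as those of most members.

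Depth was 2834168 to 4060892 estimated counts per library. The members and all choices were made with earlier results of these data known. Named genes are the 5 widest margins, the 3 highest mean scaled counts and 2 highest mean FPKM in SD40, the genes on either side of the limit of 100, the most and least even members in SD40, and any member called by edgeR. AJAP16329, AJAP25770 and AJAP06411 were added after their values were seen.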

Additional observations from a re-analysis of the deposited data

Results flagged for a closer look

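With the main scaling, every SD40 library of AJAP01274 stood above and every SD20 library below all 3 SD30 libraries. The SD30 mean was 2.27 times the SD20 mean (scaled counts, each + 1), close to the limit of 2.5-fold that the rule allows. In the authors' FPKM the SD20 and SD30 libraries overlapped (4.12 to 5.98 and 4.53 to 11.2), and the SD30 mean was 1.24 times the SD20 mean (each + 1). edgeR called it between SD40 and SD20, a comparison that chose the member, so nothing is read from that call.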

How the results depend on the processing

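The number of genes meeting the rule was 112, and 47 with an abundance minimum of 50, 227 with no minimum and 52 with only whole estimated counts. It stayed within 1.5 times of 112 with TMM (130), library totals (139), FPKM (138), a limit of 1.5-fold (88) and no limit (121), but the members among these numbered 99, 46, 47, 77 and 100. Omission of each library gave 144 to 581 genes, since fewer libraries have to be apart. The count was 581 without SD40 replicate 1, 250 and 260 without SD40 replicates 2 and 3, 171 without SD20 replicate 3, and 191 and 202 without SD30 replicates 1 and 2. Of the first 100 genes, 26 (without SD40 replicate 1) to 78 (without SD20 replicate 1) were then members.

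For SD40 against SD30, edgeR called 0 genes and 1 with no filter on low counts, DESeq2 called 45 and limma on log2(FPKM + 0.1) called 1. No omission of a library gave a call there. For SD40 against SD20 the single call, AJAP01274, was lost (0 genes) with library totals, limma on log2(FPKM + 1), a fit of the 2 groups only, the replicate block and the omission of any library (0 to 0 genes). DESeq2 called 42 of the 27269 genes given to it there, 5 of them members, in a comparison that chose them. With limma on log2(FPKM + 0.1) the single call was another gene, not a member. For SD20 against SD30, where edgeR called 0, DESeq2 called 282 and limma on log2(FPKM + 0.1) called 17. The cause of these differences was not tested. Of 408 fold changes of named genes under alternatives, 0 changed sign and 28 moved by more than their SE. Deviations of same-numbered libraries correlated at r from -0.103 to 0.200, and were best with their own number in 8 of 18 cases. The replicate block gave 0 calls in all 3 comparisons. With it the log2 fold change of AJAP01274 against SD20 was 4.09 (SE 0.46), beside 4.10 (SE 0.41) without it. Why the call was lost was not tested. At this depth, counting intervals were apart in 11 of the 100 members.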
